A study of Mus musculus with 23 samples.

Results

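The cholesterol synthesis genes described here were 8 mouse genes taken by symbol from the table of raw counts, 8 of its 27207 rows: Hmgcs1, Idi1, Fdps, Fdft1, Sqle and Cyp51, which encode enzymes of the route from acetyl-CoA to cholesterol, and Insig1 and Srebf2, which belong to its control system. Their levels were followed in 23 bulk 3′-end RNA-seq libraries of mouse pancreatic ductal adenocarcinoma (PDAC) cells in 6 groups. The KC cells, line 9591, came from a tumor with the Ptf1a Cre/+ driver, and the KPC cells, line 14390, came from one with the Pdx1 Cre/+ driver, both of which are active in the pancreatic lineage, so that each genotype stood for 1 cell line and the Cre driver differed with it. KC cells were profiled as a 2D monolayer (6 libraries), as organoids in Matrigel on day 13 (3 libraries), and as organoids in floating gels of rat tail collagen type I on day 7 (3 libraries) and on day 13 (5 libraries), all of the first batch named in the labels. In the second batch KC and KPC organoids were both grown in collagen to day 13 (3 libraries each). The labels do not give a day for the 2D cultures. All cultures received the same serum-containing medium, but organoids went through a collagenase digestion of the gel ahead of lysis whereas 2D cells did not, so that growth in 3D and this digestion cannot be told apart. The Matrigel libraries and the collagen libraries of the first batch are described by the study as separate experiments, whereas for the 2D libraries and the second batch the sources used here give replicate numbers only, so that p-values there measure a spread between libraries that may in part be technical.

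Cells make cholesterol by condensing acetyl-CoA units into mevalonate, turning mevalonate into isoprenoid units, joining these to farnesyl pyrophosphate and squalene, and closing squalene to the sterol rings. The transcription factor SREBP2, encoded by Srebf2, turns on most genes of this route when the membranes of the endoplasmic reticulum hold little sterol. INSIG1, itself made from an SREBP2 target gene, holds the carrier SCAP and its SREBP cargo in the endoplasmic reticulum when sterol is plentiful. In dividing tumor cells the route supplies membrane cholesterol and the lipid anchors of prenylated proteins.

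Libraries held between 1221451 and 2471058 counts, and levels are given as CPM, each library's counts brought to the same total, after scaling by the trimmed mean of M-values (TMM). Of the 8 genes, 7 had enough counts to be tested among 11144 genes, with 52 to 1316 counts per library. Idi1 had 2 to 12 counts per library and fell below the filter. The 6 libraries of the 2D group fell into 2 sets before any comparison: replicates 1 to 3 had 1221451 to 1382736 counts, TMM factors of 0.738 to 0.772 and a mitochondrial share of 4.99% to 5.76%, whereas replicates 4 to 6 had 1649327 to 2091391 counts, TMM factors of 1.04 to 1.06 and a mitochondrial share of 2.51% to 3.01%. The changes of the 7 tested genes and the counts of the pathway lists are therefore also given for each set. All 8 ductal epithelial markers were found in all 23 libraries, and the summed counts of 7 fibroblast markers were 62 to 229 per library, those of 5 immune markers in the table (of 7 listed) 8 to 84, those of 5 endothelial markers 0 to 4 and those of 3 acinar and endocrine markers in the table (of 8 listed) 7 to 29. Kdr and Ins1 were at 0 in every library, Lum, Cd79a, Lyz2 and Csf1r had at most 2 counts and Ptprc and Cdh5 at most 3, while Cd68 gave 6 to 83 counts and made up most of the immune sum. Other fibroblast markers were found in all 23 libraries: Col1a2 gave 31 to 125 counts, Col3a1 10 to 77, Dcn 6 to 31 and Pdgfrb 1 to 10. Col1a1 had at most 7 counts and Pdgfra at most 4. Of the acinar list, Cela1 gave 7 to 29 counts. In bulk RNA, fewer cells of a type and less RNA per cell cannot be told apart.

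In the GRCm38 build the genes lie on 5 autosomes, with none next to another: Hmgcs1 (chr13:119690379-119708260) and Idi1 (chr13:8885501-8892451) on chromosome 13, Sqle (chr15:59315077-59331192) and Srebf2 (chr15:82147181-82205379) on chromosome 15, Insig1 (chr5:28071363-28078662) and Cyp51 (chr5:4081145-4104746) on chromosome 5, Fdps on chromosome 3 (chr3:89093588-89101959) and Fdft1 on chromosome 14 (chr14:63145150-63179578). Fdps, Fdft1 and Cyp51 lie on the minus strand. Exons of Fdft1 share 774 bases with Ctsb on the opposite strand, exons of Hmgcs1 share 557 bases with the antisense gene Gm48342, and exons of Cyp51 share 166 bases with Akap9 on the opposite strand. The sources do not state whether counting used strand, so reads of these overlaps may have been split uncertainly. Exons of Fdps also share 1124 bases with Gm43738 on the same strand, a gene model absent from the count table.

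RefSeq promoter windows, each from 250 bases before to 50 bases after the start site (build GRCm38.p6), were matched for 5 of the 8 genes: Cyp51, Insig1, Idi1, Hmgcs1 and Srebf2. The 4 of these genes that passed the filter are shown because sterol control is exerted at this end of the gene. Capitals mark 3 motifs, searched on both strands: the sterol regulatory element letters TCACNCCAC, the letters ATCACCNCA, and the NF-Y box CCAAT, which reads ATTGG on the other strand. The letters ATCACCNCA were added after the windows had been read, and they can overlap TCACNCCAC by 8 bases.
Hmgcs1, chr13:119690101-119690400, plus strand: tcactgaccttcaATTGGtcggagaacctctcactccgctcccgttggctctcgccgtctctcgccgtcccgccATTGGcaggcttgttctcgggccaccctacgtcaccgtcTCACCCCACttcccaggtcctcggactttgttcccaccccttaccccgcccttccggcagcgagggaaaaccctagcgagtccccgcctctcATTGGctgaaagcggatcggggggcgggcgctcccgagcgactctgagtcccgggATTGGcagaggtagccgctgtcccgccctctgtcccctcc
Cyp51, chr5:4104648-4104947, minus strand: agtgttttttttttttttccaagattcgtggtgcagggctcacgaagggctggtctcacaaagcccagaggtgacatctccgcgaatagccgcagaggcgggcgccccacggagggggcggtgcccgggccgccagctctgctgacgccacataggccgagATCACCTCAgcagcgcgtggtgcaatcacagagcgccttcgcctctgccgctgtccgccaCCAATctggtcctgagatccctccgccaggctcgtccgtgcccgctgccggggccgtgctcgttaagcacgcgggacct
Insig1, chr5:28071162-28071461, plus strand: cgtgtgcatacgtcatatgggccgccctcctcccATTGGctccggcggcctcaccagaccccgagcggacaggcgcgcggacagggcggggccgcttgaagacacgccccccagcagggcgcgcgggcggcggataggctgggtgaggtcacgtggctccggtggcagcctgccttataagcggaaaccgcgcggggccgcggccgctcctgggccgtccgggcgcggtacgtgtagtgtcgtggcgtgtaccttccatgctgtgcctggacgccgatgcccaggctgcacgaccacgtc
Srebf2, chr15:82147019-82147318, plus strand: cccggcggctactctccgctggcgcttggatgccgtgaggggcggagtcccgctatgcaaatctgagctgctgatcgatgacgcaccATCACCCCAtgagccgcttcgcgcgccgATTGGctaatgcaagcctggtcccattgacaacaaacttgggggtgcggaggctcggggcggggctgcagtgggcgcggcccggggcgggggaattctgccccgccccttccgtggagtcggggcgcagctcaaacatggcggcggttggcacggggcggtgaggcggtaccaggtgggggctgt

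Hmgcs1 held TCACCCCAC starting 137 bases before its start site, letters found in 1.24% of the 32851 promoter windows. Cyp51 held ATCACCTCA from position -89 and Srebf2 held ATCACCCCA from position -163, and ATCACCNCA was found in 0.782% of windows. CCAAT was found in all 5 windows of the genes described here and in 37.4% of all windows, and the Sp1 box GGGCGG in 5 of 5 and in 35.7%. The E-box CACGTG was found at position -101 of Insig1 and in none of the other 4 windows, against 7.15% of all windows. Loosening the sterol element to TCACNCNAC, found in 2.70% of windows, added none of the 5. These matches describe letters in a window and not sites of binding.

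**Figure D1:**
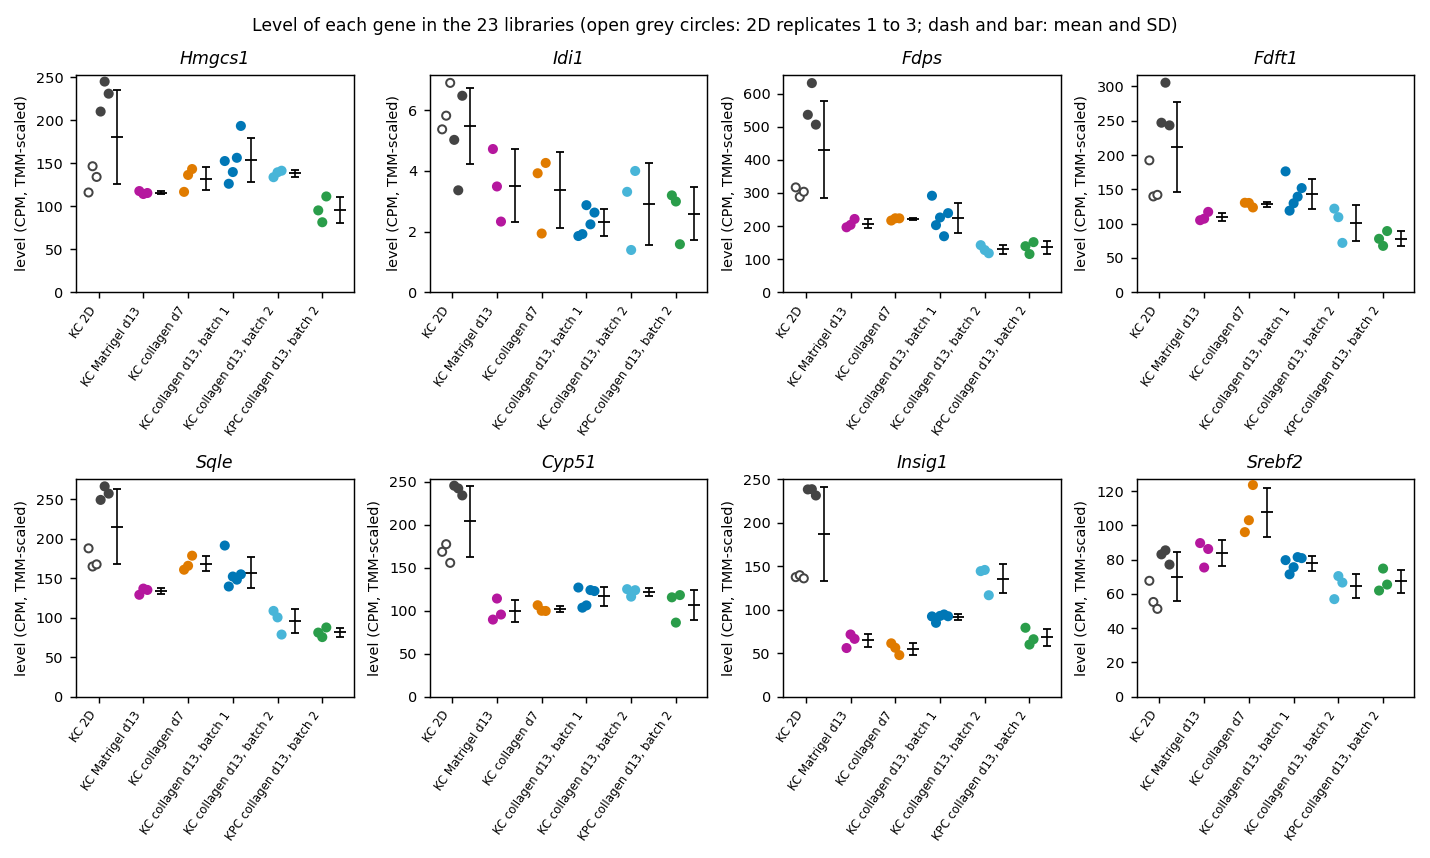
Level of each of the 8 genes (y axis, CPM after TMM scaling, from 0) in the 23 libraries, by group (x axis), where points are libraries, open grey circles are 2D replicates 1 to 3, and the dash and bar are the mean and SD. In every panel except that of Idi1 the 3 filled 2D points lie above the 3 open ones, and Insig1 in collagen on day 13 runs from 84.9 to 94.5 CPM in the first batch and from 117 to 146 CPM in the second.

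The first steps of the route were read by Hmgcs1, which makes HMG-CoA. In the 2D libraries, replicates 1 to 6, its levels were 116, 146, 134, 210.0, 245 and 231 CPM. In Matrigel they were 118, 114 and 115 CPM, in collagen on day 7 they were 117, 136 and 143 CPM, and on day 13 of the first batch they were 153, 126, 139.7, 156 and 193 CPM. The second batch gave 134, 139 and 141 CPM in KC and 95.2, 81.4 and 111 CPM in KPC organoids. The KPC libraries were thus the lowest of all groups, without overlap with Matrigel above them, and from 2D down to Matrigel each group overlapped the next in the order of means. The share of all genes without overlap between KPC and Matrigel is not given.

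Idi1, which interconverts the isoprenoid building blocks, gave 3.36 to 6.90 CPM in 2D (median 5.59), 2.33 to 4.72 CPM in Matrigel, 1.94 to 4.26 CPM in collagen on day 7 and 1.85 to 2.87 CPM on day 13 of the first batch. In the second batch it gave 1.39 to 4.0 CPM in KC and 1.58 to 3.19 CPM in KPC organoids. Every pair of groups next to each other in the order of means overlapped, and at this depth a single count is a large share of the value.

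Fdps makes farnesyl pyrophosphate, where the sterol route and the prenyl lipids part. Its 2D levels were 317, 288, 304, 536, 632 and 506 CPM, so that replicates 4 to 6 stood well above replicates 1 to 3. Matrigel gave 196, 204 and 221 CPM, day 7 collagen gave 217, 224 and 223 CPM, and day 13 collagen of the first batch gave 292, 203, 226, 169 and 239 CPM. The second batch gave 142, 128 and 118 CPM in KC and 139, 116 and 152 CPM in KPC organoids. The 6 libraries of the second batch were therefore all below the 17 of the first batch, and the Matrigel and collagen libraries of the first batch overlapped. Between the day 13 KC collagen libraries of the 2 batches, 35.9% of all tested genes did not overlap. The share for the 6 against the 17 libraries is not given.

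Fdft1, which joins farnesyl units to squalene and is the first step given over to sterols, followed nearly the same order of groups. In 2D it gave 192, 139.7, 142, 247, 305 and 243 CPM, in Matrigel 105, 107 and 117 CPM, and in day 7 collagen 130.4, 130.2 and 124 CPM. Day 13 collagen of the first batch gave 176, 119, 129.7, 139 and 152 CPM, and the second batch gave 122, 109 and 72.0 CPM in KC and 77.9, 67.6 and 89.2 CPM in KPC organoids. The KC and KPC libraries of the second batch overlapped, as did 2D replicates 2 and 3 with the day 13 collagen libraries.

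Sqle, squalene epoxidase, is a rate-limiting enzyme of the later route. Its 2D levels were 188, 165, 168, 249, 266 and 257 CPM, those in Matrigel were 129, 137 and 135 CPM, and those in day 7 collagen were 161, 166 and 179 CPM. On day 13 of the first batch they were 191, 139.5, 152, 148 and 155 CPM, and in the second batch they were 109, 100.4 and 78.6 CPM in KC and 81.1, 75.4 and 87.6 CPM in KPC organoids. As for Fdps, the 6 libraries of the second batch were below every library of the first, where 35.9% of all tested genes did not overlap between the day 13 KC collagen libraries of the batches.

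Cyp51, the demethylase that acts on lanosterol, did not show that batch pattern. Its levels were 169, 178, 156, 246, 242 and 234 CPM in 2D, 89.7, 114 and 95.6 CPM in Matrigel and 106, 99.9 and 99.8 CPM in day 7 collagen. Day 13 collagen gave 127, 104, 106, 124 and 123 CPM in the first batch, and 125, 116 and 124 CPM in KC and 116, 86.2 and 118 CPM in KPC organoids of the second. All 6 of the 2D libraries lay above all 17 organoid libraries, and neighbouring groups among the organoids overlapped. Between 2D and Matrigel, day 7 and first batch day 13 collagen, 26.7%, 32.3% and 20.3% of all tested genes did not overlap.

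Insig1 had the widest spread between organoid groups as a ratio, with a highest group mean 2.46 times the lowest, against 2.07 times for Sqle and less for the other 6 genes. In 2D it gave 137, 139.7, 136, 238, 239 and 231 CPM, in Matrigel 55.9, 71.5 and 66.4 CPM, and in day 7 collagen 61.3, 56.2 and 47.7 CPM. In day 13 collagen it gave 92.3, 84.9, 92.8, 94.5 and 92.5 CPM in the first batch, 144, 146 and 117 CPM in KC organoids of the second batch and 79.2, 59.9 and 66.0 CPM in KPC organoids. The day 13 KC libraries of each batch stood apart from every other organoid group and from each other, while KPC, Matrigel and day 7 overlapped. Of all tested genes 35.9% did not overlap between these KC batches and 37.3% between KC and KPC of the second batch. Between the first batch and Matrigel or day 7 the shares were 19.5% and 48.3%.

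Srebf2, in contrast, was highest in day 7 collagen, at 96.1, 103 and 124 CPM. It gave 67.7, 55.3, 51.3, 83.1, 85.5 and 77.1 CPM in 2D, 89.7, 75.4 and 86.2 CPM in Matrigel, and 79.7, 71.5, 75.6, 81.5 and 80.9 CPM in day 13 collagen of the first batch. The second batch gave 56.9, 70.4 and 66.6 CPM in KC and 62.0, 74.8 and 65.5 CPM in KPC organoids. The day 7 libraries lay above all 20 others, and all other neighbouring groups overlapped. Of all tested genes 48.3% did not overlap between day 7 and day 13 of the first batch and 32.3% between day 7 and 2D.

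The comparison of 2D with organoids asked which of the genes differed between monolayer and matrix-grown cells. Against Matrigel, 6 of the 7 tested genes were higher in 2D and none was lower, where 42% of all tested genes were called in either direction (edgeR quasi-likelihood test, Benjamini-Hochberg adjusted p under 0.1). Against day 7 collagen 6 were higher and 1 was lower, where 51.2% of all genes were called, and against day 13 collagen 5 were higher and none lower, where 49.6% were called. The median log2 fold change of the 7 genes was 0.96, 0.74 and 0.58 in these comparisons, beside 0.02, 0.02 and 0.01 over all tested genes. The 3 comparisons share the 2D libraries and are not independent of each other.

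Insig1 changed most. Its log2 fold change was 1.55 ± 0.18 (SE) against Matrigel (adjusted p = 8.6e-07), 1.78 ± 0.19 against day 7 collagen (adjusted p = 5.1e-08) and 1.05 ± 0.15 against day 13 collagen (adjusted p = 4.4e-06). Among the enzymes, Cyp51 was higher by 1.04 ± 0.15, 1.01 ± 0.15 and 0.82 ± 0.12 on the log2 scale (adjusted p = 1.2e-05, 5.7e-06 and 9.0e-06). Fdps was higher by 1.07 ± 0.21, 0.97 ± 0.20 and 0.94 ± 0.17 (adjusted p = 0.00041, 0.00051 and 0.00011). These 3 genes were called in all 3 comparisons under each alternative normalization, filter, threshold, test and choice of libraries.

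Fdft1, Sqle and Hmgcs1 changed by less. Fdft1 was higher by 0.96 ± 0.20 against Matrigel, 0.74 ± 0.20 against day 7 and 0.58 ± 0.16 against day 13 collagen (adjusted p = 0.00078, 0.0038 and 0.0066). Sqle was higher by 0.70 ± 0.15, 0.37 ± 0.15 and 0.47 ± 0.12 (adjusted p = 0.00094, 0.043 and 0.0040), and Hmgcs1 by 0.66 ± 0.18 and 0.47 ± 0.18 against Matrigel and day 7 collagen (adjusted p = 0.0077 and 0.039). Without day 7 replicate 1 the calls of Hmgcs1 and Sqle against day 7 collagen were lost (adjusted p = 0.14 and 0.11), as was that of Sqle without replicate 2 (adjusted p = 0.11), and both were lost in the fit of the 2 groups alone (adjusted p = 0.14 and 0.13). Both were also lost with the replicate number as a block. With libraries scaled by size alone, Sqle was called in none of the 3 comparisons (adjusted p = 0.10 to 0.39), Hmgcs1 was not called against Matrigel or day 7 (adjusted p = 0.19 and 0.27) and Fdft1 was not called against day 13 collagen (adjusted p = 0.14). Against day 13 collagen the value of Hmgcs1 was 0.25 ± 0.15 and was not called (adjusted p = 0.19), but it was called without 2D replicate 1 or collagen replicate 5 (0.34 in each fit). It was also called against the 8 KC collagen libraries of both batches. Srebf2 did not follow its target genes: it was lower in 2D than in day 7 collagen by a log2 fold change of -0.59 ± 0.13 (adjusted p = 0.00088), and its values of -0.23 ± 0.14 against Matrigel and -0.13 ± 0.12 against day 13 collagen were not called (adjusted p = 0.20 and 0.42), the first being called without 2D replicate 4 or 5 (-0.30 and -0.31). Srebf2 was also called lower than in Matrigel with library size alone, with at least 10 counts in every library and with the replicate number as a block.

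**Figure D2:**
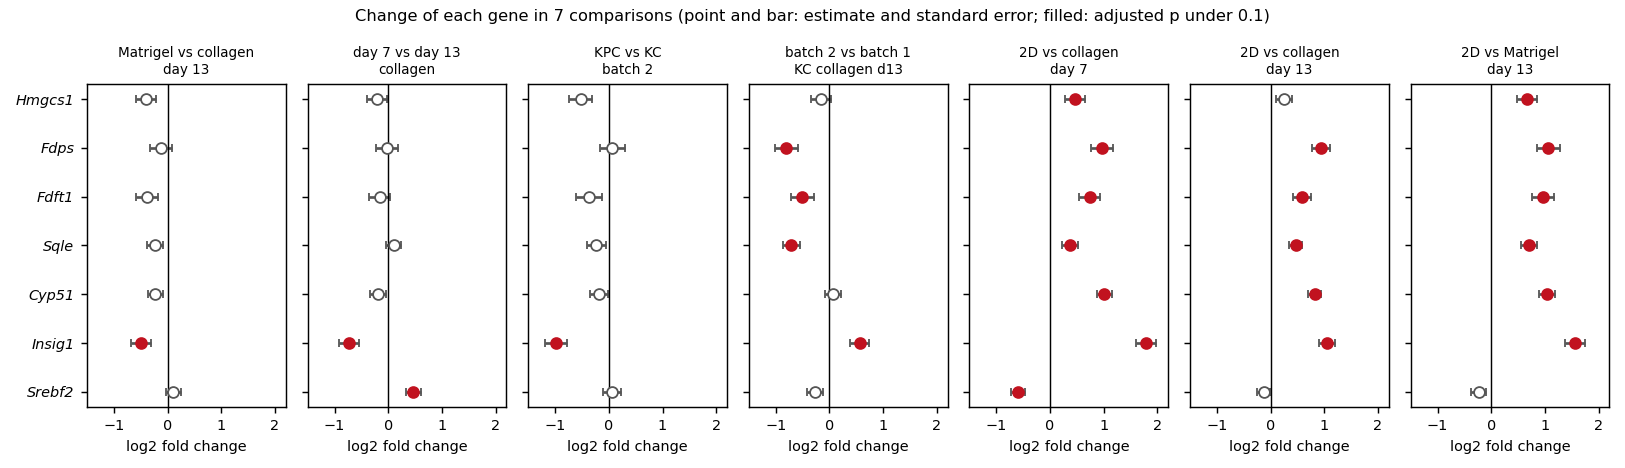
Log2 fold change (x axis, first group against second) of the 7 tested genes (y axis) in 7 comparisons (panels), where points and bars are the edgeR estimate and its standard error and filled red points have an adjusted p under 0.1. In the 3 panels on the right, which compare 2D with organoids, all points but that of Srebf2 lie to the right of 0, with Insig1 farthest at 1.78, 1.05 and 1.55.

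The sets of 2D libraries gave different sizes of change. Shares of all genes called with replicates 1 to 3 alone are given below with the other enzymes. None is given for replicates 4 to 6. The calls of that set therefore do not show whether these genes differ from genes at large. With replicates 4 to 6 alone, the 6 genes without Srebf2 were called higher than in day 13 collagen, by 0.54 for Hmgcs1 to 1.34 for Insig1, with Idi1, which then passed the filter, also called at 1.04. With replicates 1 to 3 alone only Insig1 (0.61), Cyp51 (0.54) and Fdps (0.45) were called higher, Sqle and Fdft1 were at 0.16 and not called, Hmgcs1 was at -0.19 and not called, and Srebf2 was called lower at -0.41 (adjusted p = 0.011). Against day 7 collagen, replicates 4 to 6 gave the same 6 genes values from 0.64 for Sqle to 2.13 for Insig1, all called, while Idi1 at 0.57 was not called (adjusted p = 0.28). Replicates 1 to 3 gave called values of 1.33 for Insig1, 0.72 for Cyp51, 0.46 for Fdps and 0.31 for Fdft1, and Hmgcs1 and Sqle, at 0.01 and 0.05, were not called (adjusted p = 0.96 and 0.75). Srebf2 was called lower than on day 7 with each set, at -0.37 with replicates 4 to 6 and -0.89 with replicates 1 to 3. Against Matrigel, replicates 4 to 6 gave the 6 genes values from 0.91 for Sqle to 1.84 for Insig1, all called, while Idi1 at 0.38 was not called (adjusted p = 0.51). Replicates 1 to 3 gave called values from 0.38 for Sqle to 1.1 for Insig1, without Hmgcs1 at 0.20 (adjusted p = 0.25). Srebf2 was called lower than in Matrigel with replicates 1 to 3, at -0.53 (adjusted p = 0.0027), and had -0.06 with replicates 4 to 6 (adjusted p = 0.74). The summed level of 8 ductal markers was 7608 to 10899 CPM in 2D and 10113 to 14785 CPM in the organoid groups, and the summed level of 10 immediate early genes was 802 to 1365 CPM in 2D, 1307 to 1379 CPM in Matrigel and 1601 CPM or more in every collagen library. The summed level of 12 proliferation genes was 724 to 1235 CPM in 2D, 721 to 778 CPM in Matrigel, 2108 to 2206 CPM on day 7 and 554 to 801 CPM on day 13. In 2D all 12 were called lower than on day 7, 11 higher than on day 13 and 6 higher than in Matrigel. Of all tested genes 51.2%, 49.6% and 42% were called in these comparisons. The part of these gene lists in the result was not tested. In the fit without a filter on low counts, Idi1 was higher in 2D than in day 13 collagen by 1.14 ± 0.41 (adjusted p = 0.032), and it was not called in the other 6 comparisons. Its 2D libraries did not overlap those of day 13 collagen, as for 20.3% of all tested genes.

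Ratios between the genes do not depend on scaling. Insig1 had 0.378 to 0.485 counts per Fdps count in the 6 libraries of 2D, both sets included, against 0.214 to 0.558 in the 11 organoid libraries of the first batch. Srebf2 had 0.135 to 0.214 counts per Fdps count in 2D and 0.273 to 0.648 in all 17 organoid libraries, with no overlap. For Insig1 and its paralog Insig2, which holds SCAP in the same way, the ratio was 0.977 to 1.29 in replicates 1 to 3, 2.16 to 2.50 in replicates 4 to 6 and 0.380 to 0.893 in the organoids.

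The other enzymes of the route were described from a list of 13 genes. Against Matrigel, 11 of 13 were higher in 2D and none lower, from Ebp at 0.51 to Mvd, the mevalonate pyrophosphate decarboxylase, at 1.59. Against day 13 collagen 11 of 13 were higher, from Lbr at 0.43 to Acat2, the thiolase at the entry of the route, at 1.37. Against day 7 collagen 10 were higher, up to Acat2 at 1.26, and Lbr, a sterol reductase that is also a nuclear envelope protein, was lower at -0.91. The called share of the list was 84.6% in each comparison, beside the 42%, 49.6% and 51.2% of all genes. With 2D replicates 4 to 6 alone 12, 13 and 11 of the 13 were higher than in Matrigel, day 13 and day 7 collagen, and 1 was lower, against day 7. With replicates 1 to 3 alone 7, 5 and 6 were higher and 1, 1 and 2 lower, called shares of 61.5%, 46.2% and 61.5% beside 51.1%, 54.9% and 57.4% of all genes in the same fits. With libraries scaled by size alone 6, 8 and 8 of the 13 were higher, where 1059, 1692 and 1997 of all 11144 tested genes were called higher. The lower calls of the list in these fits are not given.

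Of 10 further SREBP regulators, 3 were lower in 2D than in Matrigel and 6 were lower than in day 13 collagen, and none was higher in either comparison, called shares of 30% and 60% beside 42% and 49.6% of all genes. Scap, the carrier of SREBP, was the lowest in both, at -0.79 and -0.62. Against day 7 collagen 4 of these 10 genes were higher, up to Nr1h3, the oxysterol receptor LXR alpha, at 1.55, and Scap was lower at -0.86, a called share of 50% beside 51.2%. Of the 11 uptake, transport and storage genes, of which 8 were tested, 4 were higher and 3 lower in 2D than in Matrigel, 4 and 2 against day 13 and 2 and 3 against day 7 collagen. Tmem97 was the highest against Matrigel and day 13 collagen at 1.0 and 0.89, and Stard4, a sterol carrier protein, against day 7 at 1.03. Npc1, which exports cholesterol from lysosomes, was the lowest against Matrigel and day 7 at -0.90 and -0.95, and Lipa, the lysosomal acid lipase, against day 13 at -0.78. Of 13 fatty acid genes 6 were higher than in Matrigel, up to Scd1 at 1.09, 5 were higher and 1 lower than in day 13 collagen, Lpin1 at 0.80 and Me1 at -0.49, and 9 were higher and 1 lower than in day 7 collagen, Acss2 at 1.78 and Fasn at -0.84. Of 9 genes of the isoprenoid side branches 2, 2 and 3 were higher in 2D than in Matrigel, day 13 and day 7 collagen, with Coq2 highest at 0.77 and 0.66 against Matrigel and day 7 and Fntb at 0.65 against day 13, and Pdss1 was lower at -0.96 against day 7.

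The called counts of these lists also differed between the sets of 2D libraries. For replicates 1 to 3 they stand beside the shares of all genes given above for the other enzymes in the same fits. For replicates 4 to 6 no share of all genes is given. The counts of that set therefore do not show whether the lists, or the other enzymes, differ from genes at large. Of the fatty acid genes, with replicates 4 to 6 alone 9, 10 and 10 of 13 were higher than in Matrigel, day 13 and day 7 collagen and 0, 1 and 1 lower, whereas with replicates 1 to 3 alone 2, 1 and 6 were higher and 1, 6 and 2 lower. Of the 10 regulators 4 were lower than in Matrigel and 4 lower than on day 13 with replicates 4 to 6, and 6 and 6 with replicates 1 to 3, with none higher, while against day 7 4 were higher and 1 lower with replicates 4 to 6 and 3 and 3 with replicates 1 to 3. Of the 8 tested uptake, transport and storage genes 4, 5 and 3 were higher than in Matrigel, day 13 and day 7 collagen and 3, 2 and 2 lower with replicates 4 to 6, and 3, 2 and 2 higher and 3, 2 and 3 lower with replicates 1 to 3. Of the 9 side branch genes 1 to 3 were higher and 0 to 2 lower in each of these fits.

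**Figure D3:**
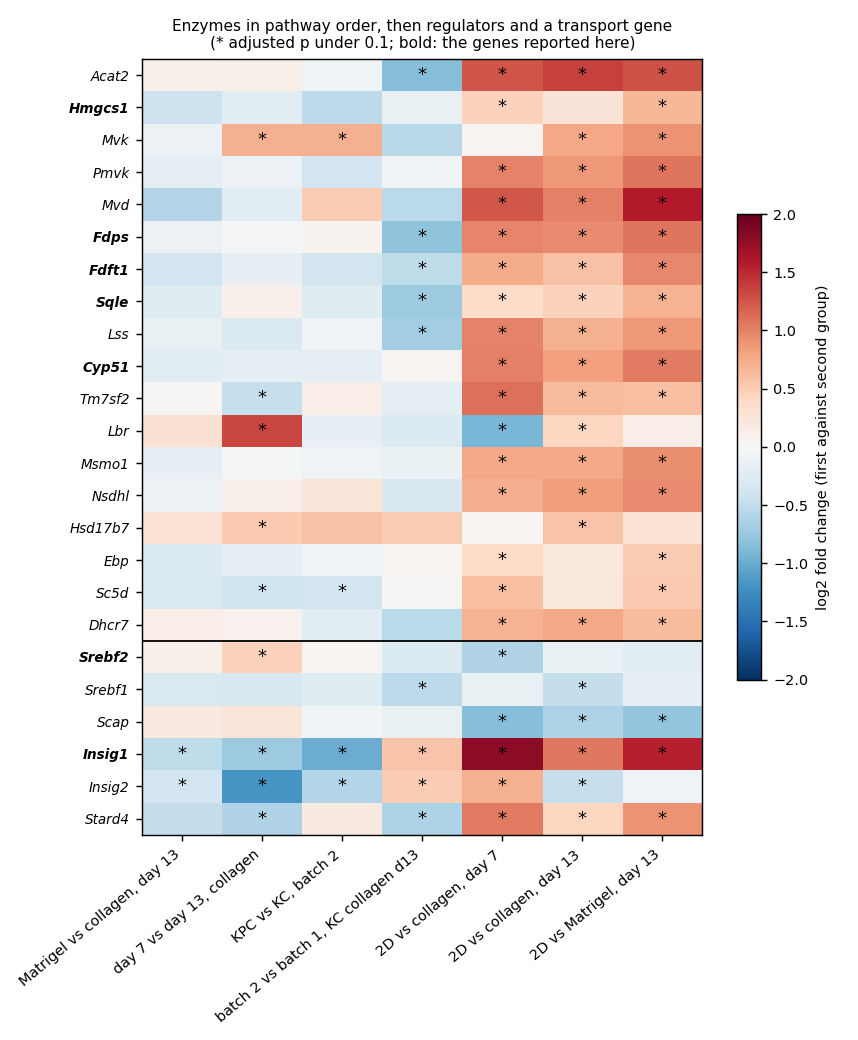
Log2 fold change (color, from -2 to 2) of 18 tested enzymes in pathway order and of 6 regulators and transport genes (rows) in 7 comparisons (columns), with an asterisk where the adjusted p was under 0.1 and the genes described here in bold. The 3 columns on the right hold mostly positive values among the enzymes, up to 1.59 for Mvd, and the column of Matrigel against collagen has asterisks only at Insig1 and Insig2.

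Matrigel and collagen organoids of day 13 differ in shape, as spheres and as branched structures, and the comparison asked which transcripts differ with the matrix. Of the 7 genes, Insig1 was lower in Matrigel and none was higher, where 12.9% of all tested genes were called. The log2 fold change of Insig1 was -0.50 ± 0.18 (adjusted p = 0.092). This call was lost when any 1 library other than collagen replicate 2 was left out, with adjusted p up to 0.32. The 3 Matrigel libraries lay below the 5 of collagen for Insig1, Hmgcs1, Sqle and Fdft1. These were 4 of the 7 genes, beside 19.5% of all tested genes without overlap. The other 6 genes had values from -0.41 for Hmgcs1 to 0.11 for Srebf2 and were not called. None of the 13 other enzymes and none of the 9 side branch genes was called, with medians of -0.12 and -0.14. Insig2 was lower by a log2 fold change of -0.39 ± 0.12 (adjusted p = 0.039), and Npc1 was higher at 0.81, while Soat1, which esterifies cholesterol for storage, was lower at -0.41. Of the fatty acid genes under SREBP control, 1 of 13 was higher, Acly at 0.49, and 3 were lower, Scd1 most at -0.81. Here 9 of 10 immediate early genes were lower in Matrigel and their part in the result was not tested.

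Day 7 and day 13 in collagen correspond to branch extension and to the later stage with lumens. Of the 7 genes, Srebf2 was higher and Insig1 was lower on day 7, where 55.1% of all tested genes were called. Srebf2 had a log2 fold change of 0.47 ± 0.14 (adjusted p = 0.0058) and Insig1 of -0.73 ± 0.19 (adjusted p = 0.0020). For these 2 of the 7 genes no day 7 library overlapped a day 13 library, beside 48.3% of all tested genes without overlap. Both calls held without any 1 library. The 5 enzymes ranged from -0.22 for Hmgcs1 to 0.10 for Sqle with adjusted p of 0.29 to 0.92 and were not called. On day 7 the summed level of 12 proliferation genes was 2108 to 2206 CPM against 554 to 801 CPM on day 13, and all 12 were called higher. Their part in the result was not tested.

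Of the 13 other enzymes 3 were higher on day 7, led by Lbr at 1.34, and 2 were lower, Tm7sf2 most at -0.46, a called share of 38.5% beside the 55.1% of all genes. Lbr and Tm7sf2, which act on the same step, changed in opposite directions. Of the 10 regulators 6 were lower and none was higher, a called share of 60%, with Nr1h3 at -1.38 and Insig2 at -1.17. Of 13 fatty acid genes 8 were lower, Acss2 most at -1.54, and 3 were higher, Acaca most at 1.19. Of the 9 side branch genes Pdss1 was higher at 1.14 and Ggps1 lower at -0.39, and of 8 tested uptake, transport and storage genes 3 were higher, Tmem97 most at 1.21, and 3 lower, Osbp most at -0.66.

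KPC and KC organoids were compared within the second batch, where genotype and cell line cannot be told apart. Of the 7 genes Insig1 was lower in KPC organoids and none was higher, where 19.9% of all tested genes were called. Insig1 fell from 136 ± 16.4 CPM (SD, n = 3) in KC to 68.3 ± 9.89 CPM (SD, n = 3) in KPC organoids, a log2 fold change of -0.99 ± 0.21 (adjusted p = 0.0013), and the call held without any 1 library. Hmgcs1 had -0.52 ± 0.21 (adjusted p = 0.11) and was not called, but it was called in 6 of 9 alternatives. These were DESeq2 in place of edgeR, its size factors, no filter, the 2 groups alone, the replicate number as a block, and the 8 KC libraries of both batches. It was also called without KPC replicate 3 (-0.65). For Insig1 and Hmgcs1, 2 of the 7 genes, the 3 KPC libraries lay below the 3 of KC, beside 37.3% of all tested genes without overlap. Fdft1, Sqle, Cyp51, Srebf2 and Fdps ranged from -0.37 to 0.07 with adjusted p of 0.35 to 0.90.

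Among the 13 other enzymes Mvk, mevalonate kinase, was higher at 0.71 ± 0.28 (adjusted p = 0.096) and Sc5d, sterol C5-desaturase, was lower at -0.37 ± 0.14 (adjusted p = 0.088). Of the 10 regulators 4 were lower and 1 was higher, where 19.9% of all tested genes were called. Insig2 was among the lower ones, at -0.59 ± 0.13 (adjusted p = 0.0028). Soat1 was higher at 0.73, and none of the 9 side branch genes was called. Of 13 fatty acid genes 4 were lower, Scd1 most at -0.96, and 2 were higher, Aacs most at 0.78. Beside these, 8 of 10 immediate early genes were lower and 6 of 12 proliferation genes were higher in KPC organoids, and their part in the result was not tested.

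KC organoids of day 13 in collagen were present in both batches and give the size of change between batches for the same line, matrix and day. Of the 7 genes 3 were lower and 1 was higher in the second batch, where 37.3% of all tested genes were called. Fdps was lower at -0.80 ± 0.22 (adjusted p = 0.0060), Sqle at -0.71 ± 0.16 (adjusted p = 0.0012) and Fdft1 at -0.50 ± 0.21 (adjusted p = 0.069). Insig1 was higher at 0.57 ± 0.18 (adjusted p = 0.016), which was lost when libraries were scaled by size alone (adjusted p = 0.20). Cyp51, Hmgcs1 and Srebf2 were not called, at 0.06, -0.15 and -0.27.

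The opposite turns of Insig1 and Fdps are also given as the ratio of the same counts. Insig1 had 0.989 to 1.14 counts per Fdps count in the KC libraries of the second batch, 0.436 to 0.569 in the KPC libraries of the same batch and 0.316 to 0.558 in the KC libraries of the first batch, so that the KC libraries of the second batch stood apart from all 20 others. Fdft1 lost its call without replicate 1 or 5 of the first batch (adjusted p = 0.15 and 0.13) and without replicate 2 or 3 of the second (adjusted p = 0.11 and 0.36). Of the 13 other enzymes Acat2 was lower at -0.85 and Lss, which closes the sterol rings, at -0.69, and none was higher. Of the 10 regulators 5 were lower and 1 was higher, with values over the list from -1.03 to 0.51, where 37.3% of all tested genes were called. Of 8 tested uptake, transport and storage genes 3 were lower, Soat1 most at -0.69, and Osbp was higher at 0.72. Of 13 fatty acid genes 4 were lower, Aacs most at -2.16, and Acsl3 was higher at 1.09, and of 9 side branch genes 3 were lower and 1 higher, Pdss1 at -0.95 and Pggt1b at 0.59. The mitochondrial share was 5.59% to 6.18% in these second batch libraries and 3.01% to 4.83% in those of the first, and its part in the result was not tested.

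How far the genes moved together across the 23 libraries is described here by Pearson's r of log2 CPM. Fdps, Fdft1 and Sqle had r of 0.93 to 0.94 with each other. Cyp51 and Insig1 had r of 0.90. The genes did not fall into separate sets. Cyp51 had r of 0.79 with Fdps, 0.79 with Fdft1, 0.75 with Hmgcs1 and 0.66 with Sqle. Hmgcs1 had r of 0.74 with Fdps, 0.75 with Sqle, 0.82 with Fdft1 and 0.70 with Insig1. Insig1 had r of 0.67 with Fdft1 and 0.59 with Fdps. Insig1 and Sqle had r of 0.47 and Insig1 and Srebf2 had r of -0.42. The libraries share groups, depth and line, and the 2D group sets much of these values. Over the 17 organoid libraries Fdps, Fdft1 and Sqle kept r of 0.82 to 0.93 and Cyp51 and Insig1 had 0.71, whereas Cyp51 and Sqle went from 0.66 to -0.003, Insig1 and Fdps from 0.59 to -0.36 and Insig1 and Srebf2 to -0.70.

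**Figure D4:**
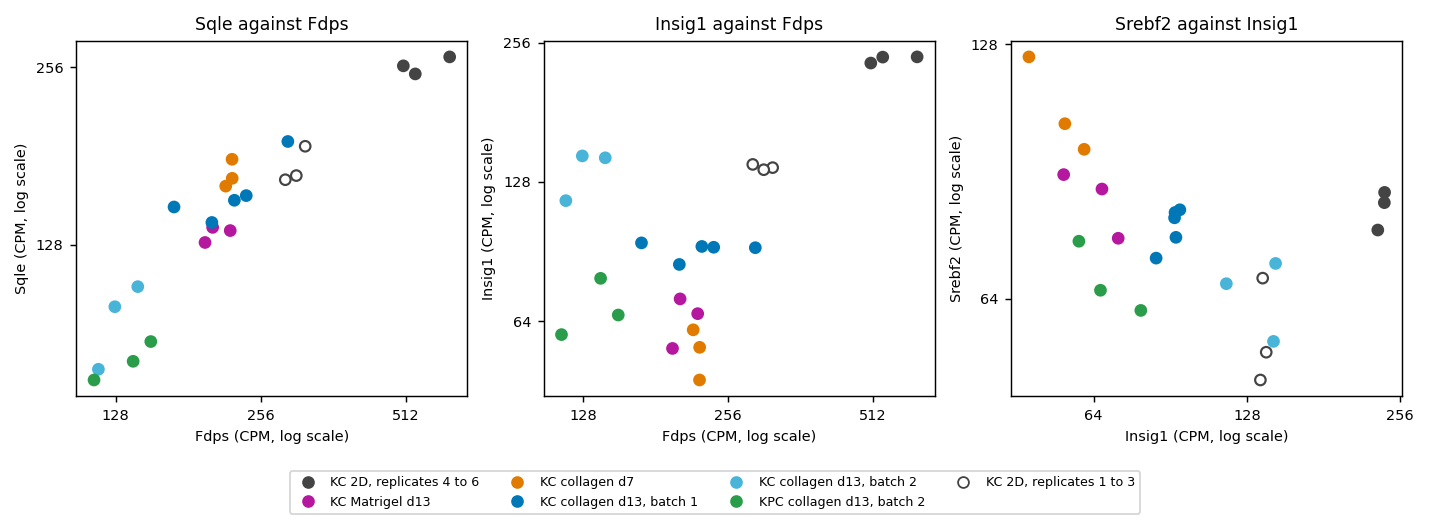
Levels in CPM (both axes on a log scale) of Sqle against Fdps, Insig1 against Fdps and Srebf2 against Insig1, where each point is 1 of 23 libraries, colors are groups and open circles are 2D replicates 1 to 3. Sqle and Fdps lie along 1 line through all groups, while in the middle panel the KC libraries of the second batch, with 117 to 146 CPM of Insig1, lie above the other organoid libraries with like levels of Fdps.

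Against the mean standardized level of the other 7 genes, Fdps and Fdft1 had r of 0.93 each, Sqle 0.89, Cyp51 and Hmgcs1 0.81, Insig1 0.62, Idi1 0.38 and Srebf2 0.01. Over the 17 organoid libraries these were 0.64 for Fdps, 0.84 for Fdft1, 0.79 for Sqle and 0.77 for Hmgcs1, but 0.17 for Cyp51, -0.10 for Insig1, -0.19 for Idi1 and 0.23 for Srebf2. Beyond the 8 genes, those most like their mean over the 23 libraries, among genes of at least 20 CPM on average, were Acat2 (r = 0.93), Pmvk (0.90), Msmo1 (0.89), Lss (0.89), Tecr (0.89), Rdh11 (0.88), Vegfb (0.87), Tmem171 (0.87), Trip6 (0.86) and Eef2 (0.85). Acat2, Pmvk, Lss and Msmo1 encode enzymes of the same route, and Tecr encodes a reductase of fatty acid elongation. Without the 2D libraries 1 of these 10, Tmem171, remained among the 10 most like.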

How the data were processed

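Poly(A) RNA was reverse transcribed with barcoded oligo-dT primers carrying unique molecular identifiers (UMIs), and 3′ ends were sequenced. The authors made the counts with the Drop-seq pipeline against GRCm38 and GENCODE M25 and deposited raw UMI counts per gene and library. They are not normalized, and strand use is not given in the sources used here. Counts per library ranged from 1221451 to 2471058. This depth limits Idi1, and 3′ counts do not follow transcript length.

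From the deposited counts, 11144 of 27207 genes passed filterByExpr (edgeR, 6 groups) and were scaled by TMM and fitted in 1 quasi-likelihood model of all 23 libraries (edgeR 4.0.16 in R 4.3.3). Genes were called at a Benjamini-Hochberg adjusted p under 0.1 over all tested genes, the threshold of the study. Printed errors are SD of CPM or SE of log2 fold changes. Likeness used log2 CPM with a prior count of 2 and genes of mean CPM of at least 20. The fit and its calls were tested on simulated counts for Matrigel against collagen alone, with genes that had passed the filter. The lists, the likeness, the motifs and the other comparisons were not tested in this way. Gene positions and overlaps were read from the GENCODE M21 annotation of the same build.

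Named genes were the 8 genes, the highest and lowest called gene of the pathway lists in most comparisons, and the 10 most alike. Those of the regulators were not all named for KPC against KC and between batches. Insig2, further called genes of the regulators and the Tm7sf2 and Lbr pair were named after their values were seen. The 8 genes and all lists were chosen with earlier results of these data known. Some tumor alleles and some genes of the pathway are not reported here and were left out of the lists and the ranking, though not of the fit. Alternatives were DESeq2 1.42.0, its size factors, scaling by library size, no filter, a minimum of 10 counts per library, an adjusted p under 0.05, the 2 groups alone, the replicate number as a block, both batches of KC collagen libraries together, and each library left out. The sets of 2D libraries and the likeness without 2D were added after the data were seen.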

Additional observations from a re-analysis of the deposited data

Results flagged for a closer look

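Insig1 in the day 13 KC collagen organoids of the first batch had its lowest level, 84.9 CPM, in replicate 2, set apart from the other 4 libraries at 92.3 to 94.5 CPM by more than Dixon's 95% critical value for 5 samples (gap over range 0.768). This was the only such value among 16 groups tested, the 8 genes in the 2 groups of more than 3 libraries, and chance gives about 1 in 20.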

How the results depend on the processing

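Across the alternatives other than leaving out a library, 422 values of single genes stayed on the same side of the threshold, 20 lost and 20 gained a call, and none that was called in either fit changed direction. With a library left out, 394 stayed, 14 lost and 5 gained a call. For Matrigel against collagen, 0 genes were called with library size alone, with at least 10 counts in every library and at a threshold of 0.05, 3 with the 2 groups alone and 2 with the replicate block, and 0 to 1 when each library was left out. At the threshold of 0.05, 1015 of all 11144 tested genes were called, and the calls among all genes in the other fits are given at the end. For KPC against KC, 2 were called with DESeq2, with its size factors and with no filter. In these fits 2048 and 2246 of 11144 and 2153 of 24507 genes were called, beside 2223 of 11144 in the main fit. With the 2 groups alone or with the replicate block 3 were called, where 3303 and 3198 of 9674 genes were called. Against the 8 KC libraries of both batches 4 were called (median log2 fold change -0.62), where 2942 of 11144 genes were called. That fit mixes batch with genotype. When each library was left out 1 to 2 were called, with 2 without KPC replicate 3. For 2D against day 13 collagen, 3 were called with library size alone, where 5305 of 11144 genes were called. Against the 8 KC libraries the median of day 7 against day 13 turned from -0.16 to 0.0034. The causes were not tested.

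Shared replicate numbers did not pair the libraries: deviations of same-numbered libraries correlated at -0.12 to 0.19, not all above 0.1. With the number as a replicate block the median was 0.31 for 2D against day 7 and 0.55 for 2D against Matrigel, fits that hold only 2D replicates 1 to 3 with a partner. With 2D replicates 1 to 3 alone the medians against day 7, day 13 and Matrigel were 0.31, 0.16 and 0.53, and with replicates 4 to 6 alone that against day 13 was 0.94. Of the 10 most alike genes, 1 remained without 2D.

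Scaling by library size alone moved the median of all genes by up to -0.26 (2D against Matrigel), and the share of calls that were higher went from 52.2% to 23.3% there, from 53.1% to 31.9% for 2D against day 13, from 51.6% to 37.5% for 2D against day 7, from 51.3% to 68.6% for Matrigel against collagen, from 48% to 67.9% for KPC against KC and from 51.6% to 35.2% between batches. Relative to that median the 7 genes kept 0.98, 0.60 and 0.75 in the 3 comparisons with 2D. For Matrigel against collagen all-gene calls went from 1439 to 954 with library size alone, 952 with at least 10 counts and 901 without Matrigel replicate 1. With the 2 groups alone there were 1856, and the replicate block added to that fit gave 2382.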
